A study of Mus musculus with 9 samples.

Results

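The transcription factor NRF2, its repressor KEAP1 and 6 enzymes or transporters that are classical NRF2 targets were followed across white adipose tissue of 9 male mice. The 8 genes are Nfe2l2 (which encodes NRF2), Keap1, Nqo1, Txnrd1, Srxn1, Slc7a11, Gclc and Gclm. They were chosen by symbol, each has 1 row (transcript cluster) in the table, and together they are 8 of 19505 genes with a symbol. The study compared 3 groups of 3 mice: mice of the leptin-deficient ob/ob strain C57BL/6JHamSlc-ob/ob that received VE, a rice bean (Vigna umbellata) extract, at 100 mg/kg, ob/ob mice that received vehicle, and vehicle-treated wild type mice (C57BL/6JHamSlc-+/+). The mice were 6 weeks old when obtained, were fed standard chow and received vehicle or VE over 42 days, VE by oral gavage. The ob/ob mice lack functional leptin throughout life in both of their groups, so neither ob/ob group separates the lack of leptin from obesity. The fat depot was not stated in the labels. Each mouse had 1 Clariom S mouse array, and all levels below are the authors' normalized log2 signals.

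In resting cells KEAP1 holds NRF2 and presents it for degradation. Oxidants and electrophiles modify KEAP1, and NRF2 then accumulates, pairs with small MAF proteins and binds antioxidant response elements in the promoters and enhancers of its targets. The targets fall into a glutathione branch (cystine uptake by SLC7A11 and the first step of glutathione synthesis by GCLC and GCLM), a thioredoxin and peroxiredoxin branch (TXNRD1 and SRXN1) and quinone reduction by NQO1. This control is largely exerted on NRF2 protein, so the Nfe2l2 transcript is not a measure of NRF2 activity. In white fat the pathway is known from adipocytes and from macrophages.

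The windows of 250 bases before annotated transcription starts are shown for the members whose window held a match to an antioxidant response element. Any link between these matches and the levels below was not tested. RefSeq windows (build GRCm38.p6) were found for 7 of the 8 genes, 9 windows in all. Gclc had no window and was not searched. Both strands were searched for TGACNNNGC, the core of the element, for TGANTCAGC, the form bound by NRF2 with small MAF proteins, and for TGACTCA, the AP-1 site, which can lie inside the second form. Capitals mark matches to the first and second forms, and each sequence is written 5′ to 3′ on the strand of its gene.
Srxn1, chr2:152105274-152105523, plus strand: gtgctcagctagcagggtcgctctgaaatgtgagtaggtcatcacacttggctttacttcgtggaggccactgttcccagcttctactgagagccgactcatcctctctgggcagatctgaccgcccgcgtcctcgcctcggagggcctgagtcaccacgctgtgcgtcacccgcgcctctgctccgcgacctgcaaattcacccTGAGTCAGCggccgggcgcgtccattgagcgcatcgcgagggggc
Txnrd1, chr10:82858956-82859205, plus strand: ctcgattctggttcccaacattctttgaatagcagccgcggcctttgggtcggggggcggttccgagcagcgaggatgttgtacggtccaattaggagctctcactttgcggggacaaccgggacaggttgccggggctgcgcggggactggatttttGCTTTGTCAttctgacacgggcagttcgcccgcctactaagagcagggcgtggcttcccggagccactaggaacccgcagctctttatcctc
Gclm, chr3:122245307-122245556, plus strand: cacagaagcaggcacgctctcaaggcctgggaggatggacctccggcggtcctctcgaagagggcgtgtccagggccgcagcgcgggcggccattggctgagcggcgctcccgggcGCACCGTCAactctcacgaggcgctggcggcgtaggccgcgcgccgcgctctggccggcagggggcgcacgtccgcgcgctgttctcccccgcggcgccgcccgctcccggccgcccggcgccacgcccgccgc
Nfe2l2, chr2:75704664-75704913, minus strand: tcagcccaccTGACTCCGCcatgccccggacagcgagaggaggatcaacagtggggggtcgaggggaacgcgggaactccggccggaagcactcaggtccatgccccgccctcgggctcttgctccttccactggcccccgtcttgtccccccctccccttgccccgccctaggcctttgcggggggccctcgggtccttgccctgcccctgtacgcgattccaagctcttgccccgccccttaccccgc

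The Srxn1 window held TGANTCAGC, 45 to 37 bases before the start, and the AP-1 site lay inside that match and again 102 to 96 bases before the start. TGANTCAGC was found in 1.02% of all 32851 windows of the same length, and TGACTCA in 4.46%. TGACNNNGC was found in 10.2% of all windows, and once each in the windows of Gclm (134 to 126 bases before the start), Txnrd1 (92 to 84, in 1 of its 3 windows) and Nfe2l2 (240 to 232). The windows of Keap1, Nqo1 and Slc7a11 held none of the 3, which says only that these letters are not in these windows. A match is a description of the sequence and not a measured binding site.

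The tissue read as fat in every group: 11 of 11 measured adipocyte markers exceeded the array median, 6.11 to 6.26, on all 9 arrays. The arrays differed in other cell types. The mean log2 level of 17 macrophage markers was 13.07 to 13.53 on the ob/ob VE arrays, 12.81 to 13.33 on those of ob/ob vehicle mice and 7.63 to 8.85 on the wild type arrays. That of 12 epithelial markers was 4.50 to 5.02 on the ob/ob VE arrays and 4.77 to 4.86 on the ob/ob vehicle arrays. On wild type arrays 1, 2 and 3 it was 9.66, 9.97 and 7.76. Of 8 markers of epididymis and testis the mean was 4.72 to 5.24 on the ob/ob VE arrays, 4.81 to 5.72 on those of ob/ob vehicle mice, and 8.08, 9.40 and 5.51 on wild type arrays 1, 2 and 3. Single genes weighed on these wild type means: Spink8 read 16.80, 16.68 and 5.32 and Adam7 5.21, 17.10 and 7.46, while Lcn8 and Tnp1 read 4.18 to 4.63. Against wild type, limma called 0 of these 8 for ob/ob vehicle and 2 lower for ob/ob VE, where 5.05% and 7.58% of all clusters were lower. Of 8 endothelial and 7 neutrophil markers 0 passed between any groups by limma, and of 6 stromal progenitor markers 2 were higher in ob/ob VE and 1 in ob/ob vehicle mice, each set against wild type. No marker of these lists was listed at 0. In bulk tissue a change in the share of a cell type and a change in RNA per cell cannot be told apart.

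Among the 8 genes, Srxn1 rose in both ob/ob groups over wild type mice, and 0 of the 8 genes passed the test between VE and vehicle in ob/ob mice. Srxn1 encodes sulfiredoxin, which restores overoxidized peroxiredoxins. Its log2 levels were 8.74, 9.28 and 10.52 on ob/ob VE arrays 1, 2 and 3, 8.53, 11.05 and 8.81 on those of ob/ob vehicle mice, and 5.79, 7.96 and 5.80 on those of wild type mice. Every ob/ob array lay above every wild type array, and the VE values fell within the span of the ob/ob vehicle values. On wild type arrays 1 and 3 Srxn1 lay below the array medians of 6.24 and 6.26. Without detection calls these 2 levels cannot be told from background, so the size of the folds below is uncertain. The ob/ob vehicle mean exceeded the wild type mean by 2.95 ± 0.78 on the log2 scale (SE, n = 3 each), or 7.71-fold with a 95% interval of 2.31 to 25.7 (adjusted p = 0.0316 by limma). The ob/ob VE mean exceeded the wild type mean by 3.00 ± 0.78, or 7.98-fold with an interval of 2.40 to 26.6 (adjusted p = 0.0234 by limma). Both differences share the same wild type arrays. Across all 19572 tested clusters, 14.1% passed between ob/ob vehicle and wild type, 9.02% as higher, and 20.0% passed between ob/ob VE and wild type, 12.4% as higher.

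The Srxn1 calls were close to the threshold. For ob/ob vehicle against wild type, leaving out ob/ob vehicle array 2 ended it (2.15, limma adjusted p = 0.109), as did leaving out array 3 (3.27, 0.0535), wild type array 1 (2.58, 0.0953) or 3 (2.59, 0.060), or ob/ob VE array 2 (2.95, 0.0529). The difference was 3.67 without wild type array 2. For ob/ob VE against wild type, the call ended without wild type array 1 (2.63, limma adjusted p = 0.0750), ob/ob VE array 2 (3.11, 0.0617) or ob/ob VE array 3 (2.49, 0.0877), and the difference was 3.72 without wild type array 2. Without wild type arrays 1 and 2 together, the differences were 3.66 for ob/ob vehicle and 3.71 for ob/ob VE against a lone wild type array assumed to vary like the other groups. Beside these differences, all 17 of 17 measured macrophage markers rose in each ob/ob group over wild type, with medians of 4.87 for ob/ob vehicle and 4.42 for ob/ob VE. Of the epithelial markers, 11 of 12 fell, with medians of −4.08 for ob/ob vehicle and −4.05 for ob/ob VE. Their part in the Srxn1 difference was not tested.

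**Figure D1:**
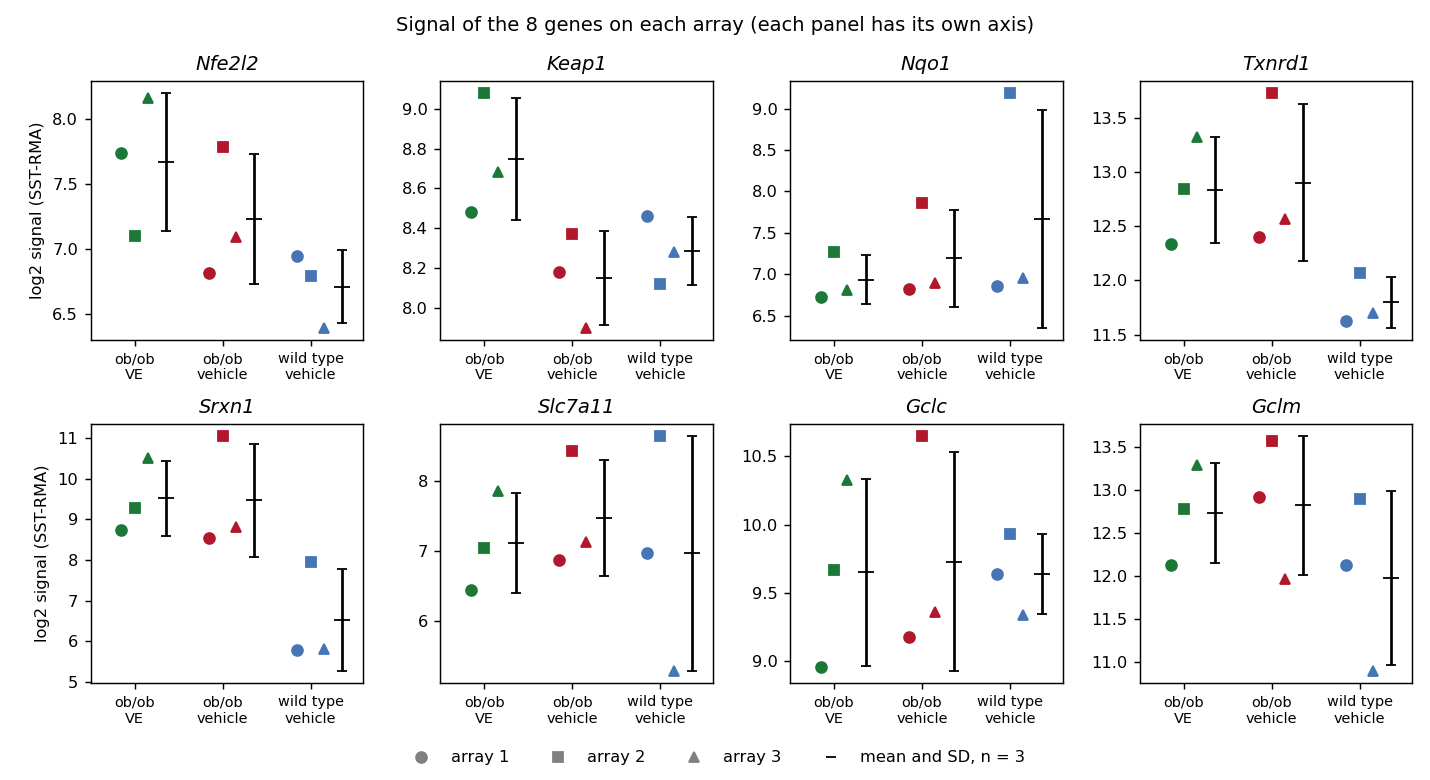
Log2 signal of the 8 genes on each array, with 1 panel per gene, each with its own vertical axis, and the groups from left to right as ob/ob VE, ob/ob vehicle and wild type vehicle. Marker shapes give the array number within a group, and bars give the mean and SD of 3 arrays. Srxn1 and Txnrd1 lie higher on every ob/ob array than on any wild type array.

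Txnrd1 encodes the cytosolic thioredoxin reductase, a selenoprotein that keeps thioredoxin reduced. Its log2 levels were 12.34, 12.84 and 13.32 on the ob/ob VE arrays, 12.40, 13.73 and 12.57 on those of ob/ob vehicle mice, and 11.63, 12.07 and 11.70 on those of wild type mice. All 6 ob/ob arrays lay above the wild type arrays, as for Srxn1, but the differences did not pass the test. They were 1.10 ± 0.38 (2.14-fold, interval 1.19 to 3.85, adjusted p = 0.0857 by limma) for ob/ob vehicle and 1.03 ± 0.38 (2.05-fold, interval 1.14 to 3.68, adjusted p = 0.0837) for ob/ob VE over wild type (SE, n = 3 each). The difference of ob/ob VE passed once ob/ob vehicle array 2 was left out (limma adjusted p = 0.0425), and after quantile normalization it was 0.57 (adjusted p = 0.343).

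The glutathione branch showed wide spreads and overlapping groups. Gclm, the modifier subunit of glutamate-cysteine ligase, read 12.13, 12.78 and 13.29 on the ob/ob VE arrays, 12.92, 13.57 and 11.97 on those of ob/ob vehicle mice and 12.13, 12.90 and 10.90 on those of wild type mice. Wild type array 3 stood below all other arrays. It averaged 12.73 ± 0.58 in ob/ob VE, 12.82 ± 0.80 in ob/ob vehicle and 11.98 ± 1.01 in wild type mice (log2 level, SD, n = 3 each). The differences from wild type were 0.76 ± 0.55 for ob/ob VE (adjusted p = 0.363 by limma) and 0.84 ± 0.55 for ob/ob vehicle (adjusted p = 0.363), both SE. Without wild type arrays 1 and 2 the differences were 1.83 for ob/ob VE and 1.92 for ob/ob vehicle against a lone array (adjusted p = 0.0714 and 0.0723 by limma).

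Gclc, the catalytic subunit, had array values of 8.96, 9.67 and 10.33 for ob/ob VE, 9.18, 10.65 and 9.36 for ob/ob vehicle, and 9.64, 9.93 and 9.34 for wild type. The groups overlapped, and the spread among ob/ob arrays was wider than among wild type arrays. The group means were nearly equal, at 9.65 ± 0.69 in ob/ob VE, 9.73 ± 0.80 in ob/ob vehicle and 9.64 ± 0.30 in wild type mice (log2 level, SD, n = 3 each). The interval of the fold over wild type was 0.512 to 2.00 for ob/ob VE and 0.540 to 2.11 for ob/ob vehicle. The sign of both small differences turned after quantile normalization.

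Slc7a11, the cystine-importing subunit of system xc−, was the most variable gene of this branch in wild type mice. It read 6.44, 7.04 and 7.85 on the ob/ob VE arrays, 6.87, 8.42 and 7.12 on those of ob/ob vehicle mice, and 6.96, 8.64 and 5.28 on those of wild type mice, so both the highest and the lowest of the 9 values were wild type. The difference from wild type was 0.15 ± 0.75 for ob/ob VE (adjusted p = 0.912 by limma) and 0.51 ± 0.75 for ob/ob vehicle (adjusted p = 0.716), both SE with n = 3 each. Without wild type arrays 1 and 2 these differences were 1.83 and 2.19, and neither passed. Its partner Slc3a2, the heavy chain that carries SLC7A11 to the membrane, averaged 15.38 ± 0.31 in ob/ob VE, 15.16 ± 0.12 in ob/ob vehicle and 14.84 ± 0.27 in wild type mice (log2 level, SD), and passed in none of the comparisons.

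Nqo1, the quinone reductase often used as a readout of NRF2, had lower means in both ob/ob groups than in wild type mice, and neither difference passed. It read 6.72, 7.27 and 6.81 on the ob/ob VE arrays, 6.82, 7.86 and 6.89 on those of ob/ob vehicle mice, and 6.86, 9.19 and 6.96 on those of wild type mice. Of these 9 values, 8 lay between 6.72 and 7.86, and wild type array 2 stood apart at 9.19. The difference from wild type was −0.74 ± 0.57 for ob/ob VE (adjusted p = 0.392 by limma) and −0.48 ± 0.57 for ob/ob vehicle (adjusted p = 0.642), both SE. Without wild type array 2 the differences were 0.02 for ob/ob VE and 0.28 for ob/ob vehicle. That array also had the highest mean level of the epithelial markers, 9.97, and of the epididymis and testis markers, 9.40. Their part in its Nqo1 level was not tested.

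The regulators did not pass either. Nfe2l2 read 7.74, 7.10 and 8.16 on the ob/ob VE arrays, 6.81, 7.78 and 7.09 on those of ob/ob vehicle mice, and 6.94, 6.79 and 6.39 on those of wild type mice. The ob/ob VE values lay above all wild type values, while the ob/ob vehicle values overlapped with both other groups. The difference from wild type was 0.96 ± 0.34 for ob/ob VE (1.95-fold, interval 1.15 to 3.30, adjusted p = 0.0759 by limma) and 0.52 ± 0.34 for ob/ob vehicle (adjusted p = 0.368), both SE with n = 3 each. Keap1 read 8.48, 9.08 and 8.68 on the ob/ob VE arrays, 8.18, 8.37 and 7.90 on those of ob/ob vehicle mice, and 8.46, 8.12 and 8.28 on those of wild type mice. The ob/ob VE values of Keap1 lay above all others, the nearest being 8.48 in ob/ob VE against 8.46 in wild type. The difference from wild type was 0.46 ± 0.24 for ob/ob VE (adjusted p = 0.213 by limma) and −0.14 ± 0.24 for ob/ob vehicle (adjusted p = 0.768).

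Counted together, limma called 1 of the 8 genes higher, 0 lower and 7 not at all for ob/ob vehicle over wild type, with a median log2 difference of 0.52 against −0.04 over all clusters tested. The counts were the same for ob/ob VE against wild type, with a median of 0.61 against −0.07. At an unadjusted p under 0.05 there were 2 genes for ob/ob vehicle (Srxn1 and Txnrd1), against 28.4% of all clusters, and 3 for ob/ob VE (Srxn1, Txnrd1 and Nfe2l2), against 33.9%. Groups did not overlap, with ob/ob higher, for 2 genes in ob/ob vehicle against wild type, where 15.7% of all clusters did so and 13.1% did so with ob/ob lower, 28.9% in all. In ob/ob VE against wild type that held for 4 genes (Srxn1, Txnrd1, Nfe2l2 and Keap1), against 19.5% of all clusters with ob/ob VE higher and 17.7% lower, 37.2% in all. The moderated F test over the 3 groups called Srxn1 alone (adjusted p = 0.0346 by limma), against 15.7% of all clusters.

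The comparison of VE with vehicle within ob/ob mice asked whether the extract was accompanied by a change in these genes. By limma 0 of the 8 genes passed, each with an adjusted p that rounds to 1, and 0.0255% of all clusters passed. At an unadjusted p under 0.05 there was 1 gene, Keap1, against 4.56% of all clusters. Keap1 was at 8.75 ± 0.31 in ob/ob VE and at 8.15 ± 0.24 in ob/ob vehicle mice (log2 level, SD, n = 3 each), 1.51-fold higher with an interval of 1.04 to 2.20, and its groups did not overlap, as was so for 12.6% of all clusters, 5.77% with VE higher. Nfe2l2 differed by 0.44 ± 0.34 (SE, 1.36-fold, interval 0.800 to 2.30).

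For the 6 targets the fold of ob/ob VE over ob/ob vehicle lay between 0.779 for Slc7a11 and 1.04 for Srxn1. The median log2 difference over all 8 genes was −0.07, against −0.02 over all clusters. The 95% interval of the fold ran from 0.531 to 1.72 for Txnrd1, from 0.480 to 1.87 for Gclc, from 0.348 to 2.01 for Nqo1 and from 0.403 to 2.20 for Gclm. For Slc7a11 it ran from 0.243 to 2.50 and for Srxn1 from 0.311 to 3.45, so a 2-fold change in either direction lies inside the intervals of Nqo1, Gclm, Slc7a11 and Srxn1, and outside that of Txnrd1. Without ob/ob vehicle array 2, on which all 8 genes read highest in that group, the log2 difference turned to 0.35 for Txnrd1, 0.38 for Gclc, 0.29 for Gclm, 0.12 for Slc7a11 and 0.08 for Nqo1, and that of Srxn1 was 0.84. Leaving out ob/ob VE array 3, on which all targets but Nqo1 read highest in that group, gave −0.45 for Srxn1. Over all arrays left out singly, the lowest differences were −0.32 for Txnrd1, −0.42 for Gclc, −0.51 for Gclm, −0.73 for Slc7a11 and −0.44 for Nqo1. By limma 0 of these differences passed.

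**Figure D2:**
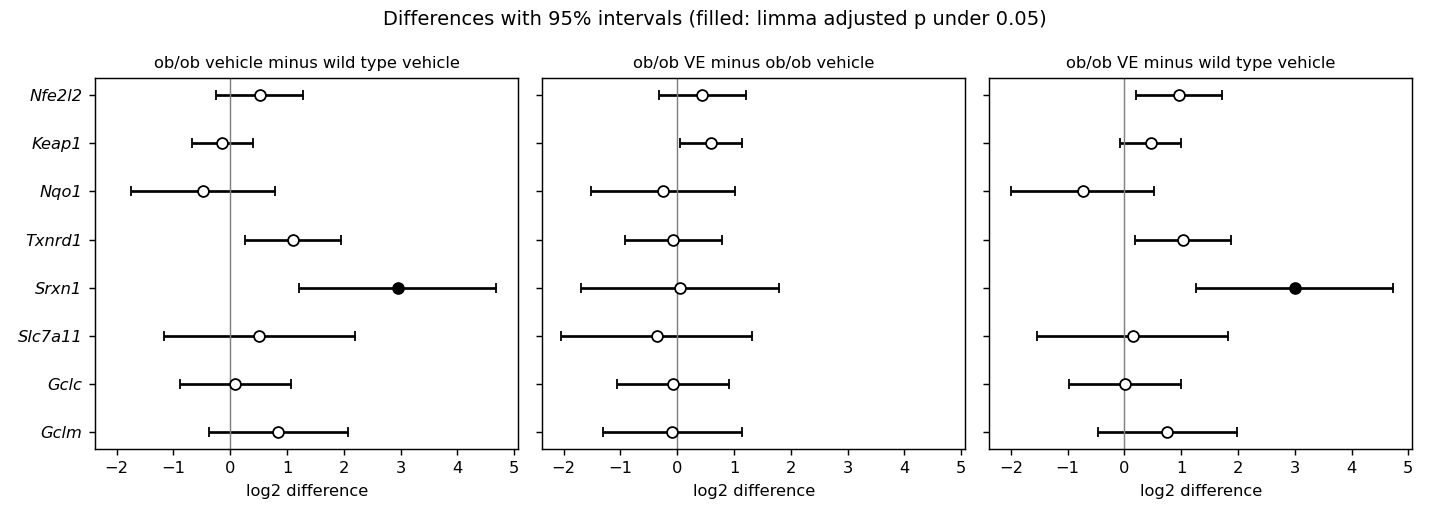
Log2 differences of the 8 genes in the 3 comparisons, with 95% intervals from limma. Filled points have an adjusted p under 0.05: Srxn1 in both comparisons with wild type, and no gene between ob/ob VE and ob/ob vehicle.

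Of the 6 targets, 5 read highest on the same array within each group, a pattern noticed in these data. Txnrd1, Srxn1, Slc7a11, Gclc and Gclm all read highest on array 3 of the ob/ob VE group, on array 2 of the ob/ob vehicle group and on array 2 of the wild type group. That combination was found for 610 of all 19505 genes, or 3.13%. It was taken from these 5 genes themselves, so the share is a description and no test. Their lowest arrays were not all shared. In wild type mice these were array 1 for Txnrd1 and Srxn1 and array 3 for Slc7a11, Gclc and Gclm. In ob/ob vehicle mice Gclm was lowest on array 3 and the others on array 1. Nqo1 shared the arrays of the ob/ob vehicle and wild type groups, and Nfe2l2 shared those of the ob/ob VE and ob/ob vehicle groups. Keap1 shared that of the ob/ob vehicle group alone. On ob/ob vehicle array 2 Srxn1 stood 1.59 above its group mean, Slc7a11 0.95, Gclc 0.92, Txnrd1 0.83, Gclm 0.75, Nqo1 0.67 and Nfe2l2 0.55 (log2 signal).

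After each group's mean was subtracted, Pearson's r between pairs of the 6 targets over the 9 arrays ranged from 0.51 to 0.98 with a median of 0.79 for 15 pairs. The median over all pairs of the 19505 genes was 0.00, and 14.1% of those pairs had an r of 0.51 or more. Txnrd1 and Gclc had an r of 0.98, Txnrd1 and Srxn1 of 0.92, Slc7a11 and Gclm of 0.90, and Nqo1 and Gclc of 0.51. Nfe2l2 had an r of 0.52 to 0.69 with every target except Nqo1, at 0.20. Keap1 had an r of 0.41 or less with every other member, and of −0.10 with Nfe2l2. These values rest on 9 arrays that share their labelling and normalization, and they are given as a description.

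**Figure D3:**
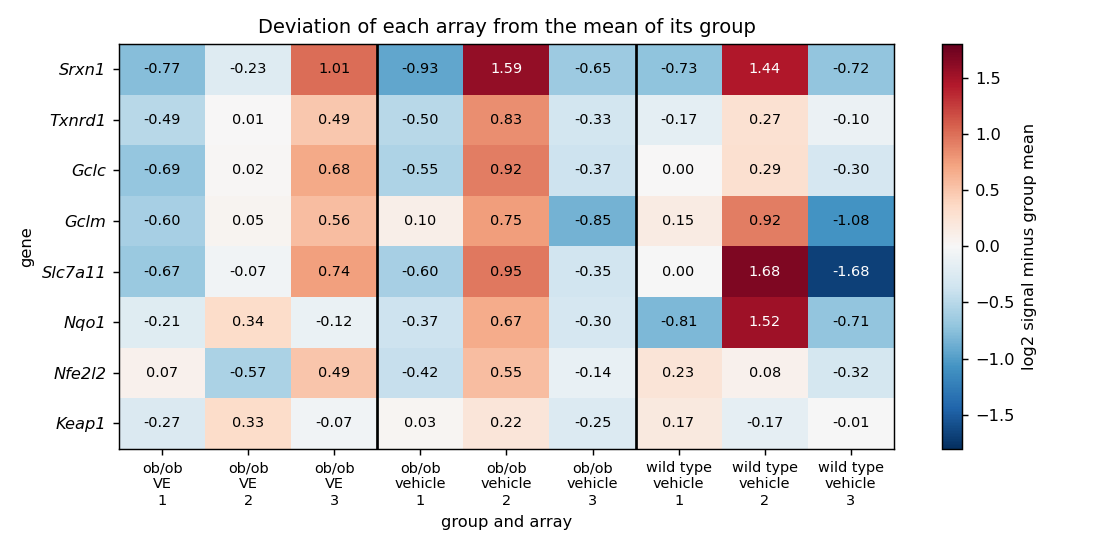
Log2 signal of each gene on each array minus the mean of its group, with genes in rows, arrays in columns and the groups from left to right as ob/ob VE, ob/ob vehicle and wild type vehicle. Red cells lie above the group mean: 5 targets are highest on ob/ob VE array 3, ob/ob vehicle array 2 and wild type array 2.

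The levels of the macrophage, adipocyte and epithelial markers were read on the same arrays. The mean macrophage level was 13.53, 13.11 and 13.07 on ob/ob VE arrays 1, 2 and 3, 13.31, 13.33 and 12.81 on those of ob/ob vehicle mice, and 7.63, 7.82 and 8.85 on those of wild type mice. This mean was thus lowest on ob/ob VE array 3 and, at 13.33 against 13.31, highest on ob/ob vehicle array 2. Single markers did not all follow it. Cd14, Gpnmb, Mmp12, Lgals3 and Cd9 read highest on ob/ob VE array 3, and the other measured macrophage markers on array 1. Cd14, Gpnmb and Mmp12 also read highest on ob/ob vehicle array 2, but on array 3 among wild type arrays. The adipocyte level was 16.05, 16.23 and 16.43 on the ob/ob VE arrays, 16.28, 15.92 and 15.97 on those of ob/ob vehicle mice and 15.43, 15.14 and 16.44 on those of wild type mice. It was highest on ob/ob VE array 3 and lowest on ob/ob vehicle array 2 and wild type array 2. The epithelial level was highest among wild type arrays on array 2. Of the 12 epithelial markers, 0 exceeded the array median on all arrays of either ob/ob group, so no order is read from them there. Of single markers, 0 of 17 macrophage genes and 0 of 11 adipocyte genes had the same combination of highest arrays as the 5 targets. By their values 3 of the 12 epithelial markers had it (Cdh1, Cldn3 and Esrp1), at the low ob/ob levels just named. The share over all genes was 3.13%, so a count of 0 in lists this short is given as a description. The part of macrophage, adipocyte or epithelial RNA in the pattern of the 5 targets was not tested.

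Of the other genes of the pathway, Bach1, a repressor that competes with NRF2, had the combination, as 1 of 10 partners and regulators. Among 31 other antioxidant response targets there were 3 (Txn1, Gstm3 and Abcc3), and among 20 glutathione and thioredoxin genes 1 (Slc3a2). These genes were named after their values were seen. Of 12 genes of the amino acid stress factor ATF4, which also acts on Slc7a11, 0 had it. Over all genes the share was 3.13%, so lists this short cannot tell 0 from that share. The difference between these shares was not tested.

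By the rule for likeness, the genes with the highest Pearson's r over the 9 arrays were Ptbp1 (0.976) and Secisbp2 (0.976) for Srxn1, and Ptbp1 (0.942) and Sema4d (0.941) for Txnrd1. Those genes were Rnf128 (0.974) and Slc18a1 (0.961) for Slc7a11, Prmt7 (0.933) and Gpr161 (0.931) for Gclm, and Tuba4a (0.960) and Mir7233 (0.891) for Gclc. For Nqo1 they were Kcnd1 (0.974) and Mansc4 (0.966), for Nfe2l2 Zfp382 (0.931) and Tubgcp4 (0.928), and for Keap1 Fam181b (0.943) and Arhgef40 (0.903). Each is the highest among all genes over 9 arrays, and no shared control is read from it.

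Among other targets of the antioxidant response, Hmox1 and Ftl1 rose and Gsta4 fell in both ob/ob groups relative to wild type mice. Of 35 listed, 31 were measured. For ob/ob vehicle over wild type, limma called 12 higher and 2 lower and left 17 uncalled, against 9.02% higher and 5.05% lower over all clusters, with a median of 0.99. Heme oxygenase Hmox1 read 15.31, 15.59 and 16.02 on the ob/ob VE arrays, 15.56, 17.30 and 15.32 on those of ob/ob vehicle mice and 8.36, 8.86 and 10.24 on those of wild type mice, and all ob/ob values lay above all wild type values. It averaged 16.06 ± 1.08 in ob/ob vehicle and 9.15 ± 0.97 in wild type mice (log2 level, SD, n = 3 each) and was higher by 6.91 ± 0.58 in ob/ob vehicle (SE, adjusted p = 6e-05 by limma). The ferritin light chain Ftl1 was higher by 3.26 ± 0.35. The glutathione transferase Gsta4 fell by 1.98 ± 0.30, and the carbonyl reductase Cbr1 fell by 1.54 ± 0.40. Glutathione reductase Gsr did not pass at 1.13 ± 0.44 (adjusted p = 0.123 by limma).

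For ob/ob VE over wild type, 12 of these 31 were called higher, 1 lower and 18 not at all, against 12.4% higher and 7.58% lower over all clusters, with a median of 0.96. Hmox1 was higher by 6.49 ± 0.58 and Ftl1 by 4.19 ± 0.35, while Gsta4 fell by 2.29 ± 0.30 (log2, SE, n = 3 each) and Gstm2 did not pass at −0.97 ± 0.43. The count of 14 for ob/ob vehicle was 9 without ob/ob vehicle array 2 and 7 without wild type arrays 1 and 2. The call of Cbr1 ended without ob/ob vehicle array 2 or 3, wild type array 1 or 2, or ob/ob VE array 2, at adjusted p from 0.0510 to 0.103 by limma. Macrophage markers, with medians of 4.87 and 4.42, were higher in the same comparisons, and their part was not tested.

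Between VE and vehicle in ob/ob mice 0 of the 31 passed by limma, against 0.0255% of all clusters. At an unadjusted p under 0.05 there were 3, against 4.56% of all clusters, and the median was 0.15. Those with the highest t were Blvrb, a biliverdin reductase, at 11.54 in ob/ob VE and 9.70 in ob/ob vehicle mice (difference 1.84 ± 0.40, adjusted p = 0.359 by limma), and thioredoxin Txn1, at 15.94 and 14.89 (1.04 ± 0.25, adjusted p = 0.515). Those with the lowest t were Gsta4 at −0.30 ± 0.30 and Prdx1 at −0.25 ± 0.29. Hmox1 stood at −0.42 ± 0.58 and Gsr at 0.16 ± 0.44 (log2 difference, SE, n = 3 each).

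Among 20 of 23 listed glutathione and thioredoxin genes that were measured, limma called 4 higher, 0 lower and 16 not at all for ob/ob vehicle over wild type (median 0.55), against 9.02% higher and 5.05% lower over all clusters. For ob/ob VE over wild type it called 8 higher, 1 lower and 11 not at all (median 0.92), against 12.4% and 7.58%. In the same comparisons 17 of 17 macrophage markers were higher, and their part was not tested. The 4 calls became 2 without wild type arrays 1 and 2, and the 9 became 5 without ob/ob VE array 1. Glutaredoxin Glrx was higher by 2.12 ± 0.25 in ob/ob vehicle and by 2.15 ± 0.25 in ob/ob VE, and the peroxidase Gpx4, which reduces lipid peroxides, by 1.21 ± 0.23 in ob/ob vehicle. Gpx1 was higher by 2.23 ± 0.26 in ob/ob VE than in wild type mice. The secreted peroxidase Gpx3 fell by 2.00 ± 0.61 in ob/ob VE (adjusted p = 0.0440 by limma), a call that ended without any 1 of the ob/ob arrays, at adjusted p from 0.0635 to 0.116. In ob/ob vehicle its difference of −1.67 ± 0.61 did not pass (adjusted p = 0.101 by limma) but did without wild type array 1 (0.0497) or 3 (0.0441). Wild type array 2 read 18.66 for Gpx3, against 15.83 and 16.02 on wild type arrays 1 and 3, and without array 2 the difference was −1.08 in ob/ob VE and −0.76 in ob/ob vehicle. Between VE and vehicle 0 of 20 passed by limma. At an unadjusted p under 0.05 there were 6, all higher with VE, against 4.56% of all clusters in either direction. Among them were Gpx1 at 1.01 ± 0.26 (adjusted p = 0.571 by limma) and Gpx4 at 0.68 ± 0.23 (log2 difference, SE). Ggct, which degrades glutathione products, stood at −0.65 ± 0.38 and was not among the 6. The thioredoxin inhibitor Txnip stood at −0.34 ± 0.23 in ob/ob vehicle against wild type.

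Of 10 partners and regulators of NRF2, limma called 2 higher and 1 lower and left 7 uncalled in each comparison with wild type (medians 0.35 for ob/ob vehicle and 0.28 for ob/ob VE, against −0.04 and −0.07 over all clusters). Over all clusters 9.02% were called higher and 5.05% lower for ob/ob vehicle, and 12.4% and 7.58% for ob/ob VE. Sqstm1, which encodes the KEAP1-binding autophagy receptor p62, was at 13.79 in ob/ob VE, 13.74 in ob/ob vehicle and 12.41 in wild type mice, and higher by 1.37 ± 0.30 and 1.32 ± 0.30 in these ob/ob groups (log2, SE, n = 3 each). The small MAF gene Maff was higher by 1.84 ± 0.41 in ob/ob VE and by 1.82 ± 0.41 in ob/ob vehicle. Its wild type levels of 4.48, 4.35 and 5.87 lay below the array medians of 6.24, 6.23 and 6.26. Those levels cannot be told from background, so the size of that rise is uncertain. Btrc, a ubiquitin ligase adaptor that also targets NRF2, fell by 0.95 ± 0.23 in ob/ob VE and by 1.09 ± 0.23 in ob/ob vehicle. The count for ob/ob vehicle was 1 without ob/ob vehicle array 1 or 2, and that for ob/ob VE was 1 without ob/ob VE array 1. Without wild type arrays 1 and 2 it was 0 in both, and after quantile normalization Sqstm1 did not pass (adjusted p = 0.0504 for ob/ob vehicle and 0.0689 for ob/ob VE by limma). The small MAF gene Mafg stood at −0.84 ± 0.27 in ob/ob VE and −0.82 ± 0.27 in ob/ob vehicle (adjusted p = 0.0513 and 0.0696 by limma). Between VE and vehicle 0 of 10 passed by limma, and 0 had an unadjusted p under 0.05, against 4.56% of all clusters. The values were 0.60 ± 0.47 for Cul3 and 0.39 ± 0.39 for Rbx1, both parts of the ubiquitin ligase that KEAP1 serves, −0.15 ± 0.23 for the kinase Gsk3b and −0.13 ± 0.33 for the related factor Nfe2l1.

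Of 12 genes of the ATF4 amino acid stress response, 0 passed by limma in ob/ob vehicle against wild type (5 at an unadjusted p under 0.05, against 28.4% of all clusters, median −0.17). That count was 1 without ob/ob vehicle array 1, ob/ob VE array 1 or wild type array 1 or 2, and 3 without wild type array 3. Between VE and vehicle 0 passed (1 at an unadjusted p under 0.05, against 4.56% of all clusters, median 0.28). In ob/ob VE against wild type 2 were higher and 0 were lower (median 0.105), against 12.4% and 7.58% of all clusters: the serine synthesis enzyme Phgdh at 1.46 ± 0.40 and the stress factor Ddit3 at 1.29 ± 0.38 (log2 difference, SE, n = 3 each). Both calls ended without ob/ob VE array 1, 2 or 3, that of Phgdh also without wild type array 1, and that of Ddit3 also without ob/ob vehicle array 2 or wild type array 2 or 3, at adjusted p from 0.0549 to 0.115 by limma. Without a pass, asparagine synthetase Asns stood at −0.73 ± 0.36 in ob/ob VE and −1.16 ± 0.36 in ob/ob vehicle against wild type, and the mitochondrial enzyme Shmt2 at −1.66 ± 0.63 and −1.67 ± 0.63. Between VE and vehicle Ddit4 stood at 1.14 ± 0.42, the cysteine-forming enzyme Cth at 1.15 ± 0.62, Atf4 at −0.29 ± 0.37 and Trib3 at −0.17 ± 0.24 (log2 difference, SE).

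**Figure D4:**
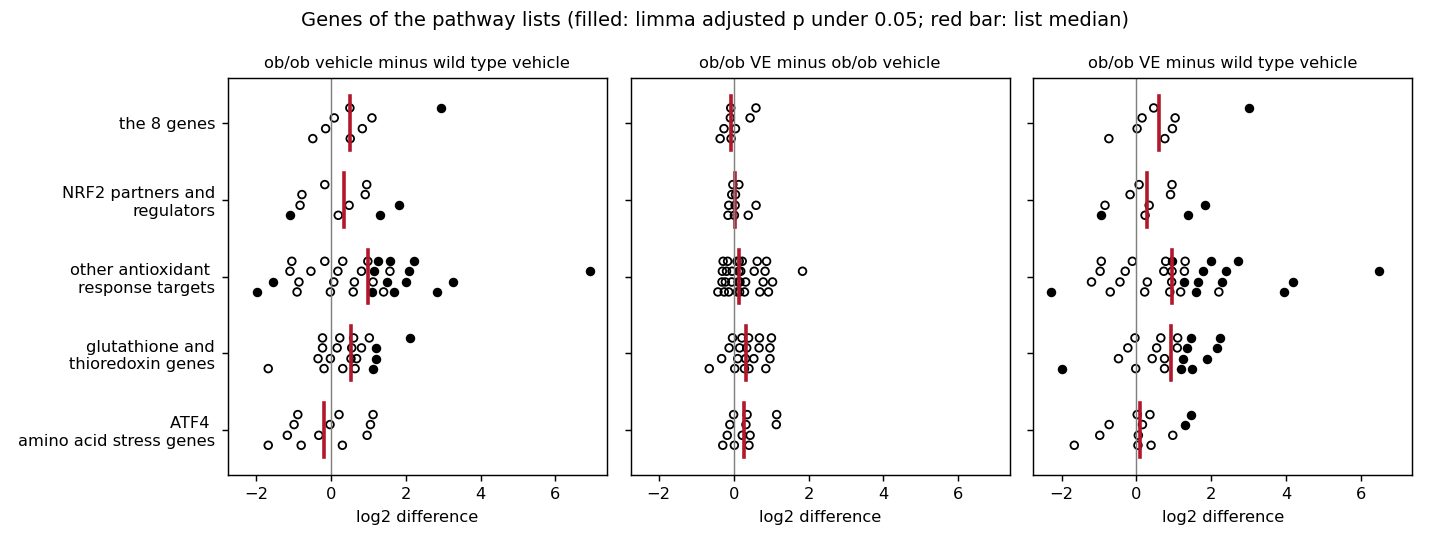
Log2 differences of the 8 genes and of the measured genes of the 4 pathway lists in the 3 comparisons, with 1 point per gene, filled where the limma adjusted p is under 0.05, and a red bar at the median. Filled points of the 8 genes are those of Srxn1, and no gene of any list is filled between ob/ob VE and ob/ob vehicle.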

How the data were processed

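Total RNA of white adipose tissue was labelled (100 ng per sample) and hybridized to Clariom S arrays for 16 hours, per the labels and the series' design text. The deposited log2 values were normalized by the authors with SST-RMA in Transcriptome Analysis Console (4.0.2 in the design text, 4 in the submitters' processing notes). The genome build and hybridization order are not given in the sources used here. Detection calls were not used here, so low signals cannot be told from background. Precision is limited by the number of arrays.

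Of 22206 transcript clusters, 19572 with 1 gene symbol in the platform annotation were tested; 2634 without one were not. Values were used as deposited. Limma 3.58.1 in R 4.3.3 fitted 3 group means over 9 arrays and moderated the variances by empirical Bayes, with 4.02 prior degrees of freedom. Two-sided p-values were corrected within each comparison by Benjamini-Hochberg. A call is an adjusted p under 0.05. Where a gene has several clusters, the one with the highest mean stands for it. The limma steps were tested on simulated data. The series text gives 3 mice per group. The members, gene lists, comparisons and alternatives were chosen with earlier results of these data known. Named by rule were the 8 members, with Slc3a2, Hmox1 and Gsr. Per list and comparison, the 2 genes of highest and the 2 of lowest t were named. Per member, so were the 2 genes most like it, other than members, unnamed gene models, and olfactory and vomeronasal receptors. Alternatives were the 2 groups compared alone, the replicate number as a block, trended and robust priors, quantile normalization, array weights, the submitters' threshold (unadjusted p under 0.05 and fold over 1.1), median centring, all clusters tested, the dimmest 30% left out, the mean of a member's rows, each array left out, and wild type arrays 1 and 2 left out.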

Additional observations from a re-analysis of the deposited data

How the results depend on the processing

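Over the 504 values of the 8 genes under the alternatives, 462 kept their direction and their side of the threshold, 15 crossed the threshold and 27 turned sign. All 27 were differences that did not pass in either setting, and the cause was not tested. The number of the 8 genes called in ob/ob vehicle against wild type was 0 with only the 2 groups compared or a robust prior, 2 at the submitters' threshold, and 0 to 1 with each array left out. In ob/ob VE against wild type it was 3 at that threshold and 0 to 2 with each array left out, and in ob/ob VE against ob/ob vehicle it was 1 at that threshold. All clusters called in ob/ob vehicle against wild type numbered 2754, and 1814 with only 2 groups, 5555 at the submitters' threshold and 1641 to 3545 with each array left out. In ob/ob VE against wild type they numbered 3920, and 6630 and 2314 to 4706. In ob/ob VE against ob/ob vehicle they numbered 5, and 19 with only 2 groups, 12 with a robust prior, 41 with array weights, 893 at the submitters' threshold, 19 without wild type arrays 1 and 2, and 0 to 21 with each array left out. The F test called 3069, and 2004 without wild type arrays 1 and 2. Of the pathway lists against wild type, the 3 partners and regulators became 5 for ob/ob VE with median centring and 6 for each ob/ob group at the submitters' threshold, and the 14 other targets for ob/ob vehicle became 9 with only 2 groups. The 2 ATF4 genes for ob/ob VE became 0 with only 2 groups or quantile normalization, and the 0 for ob/ob vehicle became 1 with the replicate block, quantile normalization or the dimmest 30% left out.

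With the replicate number as a block, 0 clusters passed between VE and vehicle, the same number of the 8 genes passed as without it in all 3 comparisons, and Srxn1 was called in both comparisons with wild type (adjusted p = 0.0135 for ob/ob VE and 0.0176 for ob/ob vehicle by limma). Arrays of different groups with the same number had deviations from their group means correlated at −0.0635 to 0.181, and those with different numbers at −0.271 to 0.158. Whether arrays with the same number shared a batch was not tested.

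Signs turned as follows (log2 differences). With array weights, VE minus ob/ob vehicle was −0.33 for Srxn1 and −0.0023 for Gsr, and VE minus wild type was −0.091 for Slc7a11 and −0.026 for Gclc. After quantile normalization, VE minus wild type was −0.31 for Gclc, VE minus ob/ob vehicle was −0.044 for Srxn1, and ob/ob vehicle minus wild type was −0.15 for Gclc and −0.042 for Slc3a2. Without wild type arrays 1 and 2, ob/ob vehicle minus wild type was 0.23 for Nqo1 and 0.03 for Shmt2, and VE minus wild type was 0.063 for Gstm2 and 0.047 for Shmt2. With each array left out, ob/ob vehicle minus wild type ran from −0.89 to 0.28 for Nqo1, −0.33 to 1.35 for Slc7a11 and −0.37 to 0.37 for Gclc. VE minus wild type ran from −1.14 to 0.023 for Nqo1, −0.69 to 0.99 for Slc7a11 and −0.32 to 0.36 for Gclc. VE minus ob/ob vehicle ran from −0.44 to 0.078 for Nqo1, −0.32 to 0.35 for Txnrd1, −0.45 to 0.84 for Srxn1, −0.73 to 0.12 for Slc7a11, −0.42 to 0.38 for Gclc and −0.51 to 0.29 for Gclm. It ran from −0.36 to 0.057 for Nfe2l1, −0.79 to 0.20 for Hmox1, −0.13 to 0.56 for Gsr and −0.63 to 0.065 for Atf4.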
